A study of Arabidopsis thaliana with 5 samples.

Results

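AT5G15950 is a gene of *Arabidopsis thaliana* chromosome 5 that encodes an S-adenosylmethionine decarboxylase, an enzyme of polyamine synthesis. It was selected by its measured signal in these arrays, which differed between the genotypes, so its own levels are given as a description without a test. It is 1 of 13355 genes named among the 22746 probe sets of the array, and a single probe set carries its name. RNA was taken from unopened floral buds of the *ask1* mutant (3 arrays) and of wild-type L*er* (2 arrays), grown in soil with no treatment listed for either. The mutant carries *ask1* (ask1-/-) in the L*er* background and lacks a SKP1-like subunit of SCF ubiquitin ligases. The methods state that mutants, which segregate in families of *ASK1*/*ask1* parents, were identified by how the plants looked. Closed buds of all sizes were pooled, so no sample holds a single stage. The labels call the arrays of a genotype biological replicates and do not say which plants went into each. The study describes further L*er* arrays, which were not analysed here.

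Polyamines are small, positively charged molecules that plants need for growth, flowering and stress responses. Putrescine is made from arginine and is turned into spermidine and then spermine or thermospermine by synthases that add aminopropyl groups. S-adenosylmethionine decarboxylase makes the donor of these groups, decarboxylated S-adenosylmethionine, and its messenger RNAs carry small upstream open reading frames through which polyamines limit its translation in plants. S-adenosylmethionine is also the methyl donor of the cell and the precursor of ethylene. No amino acid or DNA sequence of the gene is printed, as none was used here.

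The values are log2 signals after RMA, which corrects the background of Affymetrix arrays, equalizes the distributions of the arrays and summarises the probes of a set. Median signals were between 7.07 and 7.18 per array, and 22.8% to 24.5% of probe sets lay under 5, close to background, where ratios are compressed. *ask1* replicates 1 and 3 were close to each other (24 probe sets at least 2-fold apart), while *ask1* replicate 2 stood 510 and 543 such probe sets from them and only 411 and 360 from L*er* replicates 1 and 2. The probe set of the mutated gene *ASK1* has no gene name here, so the genotype labels were not checked through it. Of the floral organ identity genes and the pollen genes listed as tissue markers, 0 of 8 and 0 of 6 are named here, and the labelled tissue could not be checked through them.

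The signal of AT5G15950 was about 4-fold higher in *ask1* than in L*er* floral buds, and the arrays of the genotypes did not overlap. It measured 10.28 in *ask1* replicate 1, 10.53 in *ask1* replicate 2 and 10.47 in *ask1* replicate 3. In L*er* it measured 8.75 in replicate 1 and 7.95 in replicate 2. All *ask1* arrays were thus high, *ask1* replicate 2 among them, and both L*er* arrays were low but differed from each other. The *ask1* mean was 10.43 ± 0.13 (SD, n = 3). The L*er* mean was 8.35 ± 0.57 (SD, n = 2), which gave a log2 difference of 2.08 or a ratio of 4.23-fold. On the linear scale the mean signals were 1383 and 338.7, a ratio of 4.08-fold. In whole-bud RNA, a change in the RNA of each cell and a change in the share of cells that carry it cannot be told apart.

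**Figure D1:**
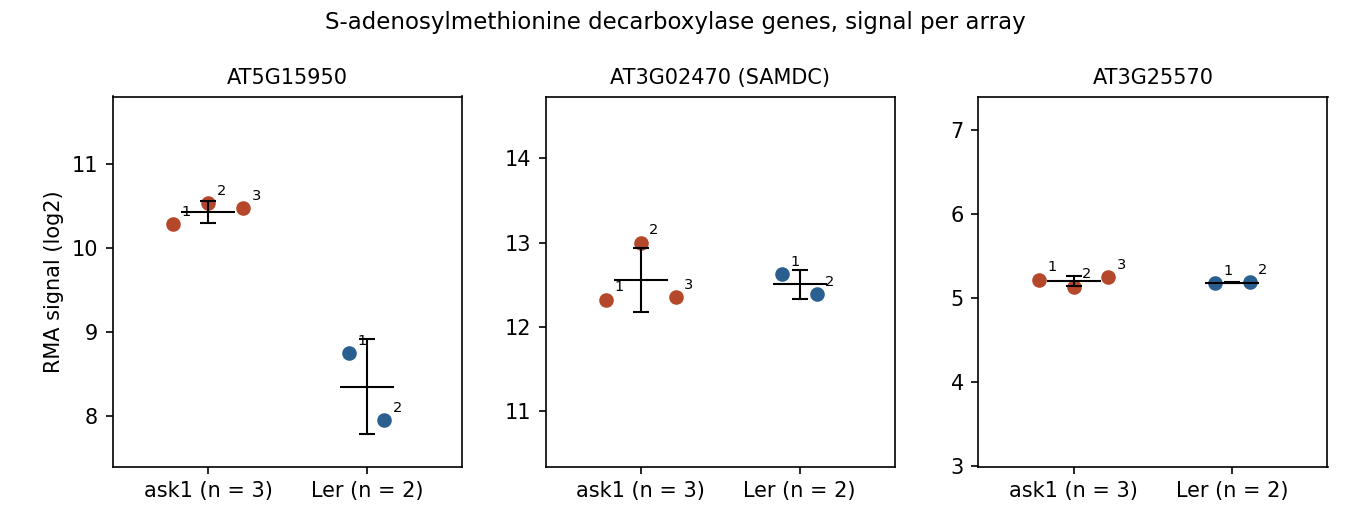
RMA signal (log2, vertical axis) of the 3 measured S-adenosylmethionine decarboxylase genes in each array of *ask1* and L*er*, with the replicate number beside each point, the mean as a wide bar and the SD as whiskers. Each panel has its own axis of equal length, as signals of different probe sets are not comparable; AT5G15950 sits between 10.28 and 10.53 in *ask1* and between 7.95 and 8.75 in L*er*, and the other two genes overlap between genotypes.

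Most of the uncertainty in this difference came from the wild type. The L*er* replicates lay 0.80 apart on the log2 scale (1.74-fold), and only 2.16% of the 22588 genes and unnamed probe sets had L*er* arrays as far apart, with a median distance of 0.16. The *ask1* replicates spanned 0.25, close to the median span of 0.24 over all rows. Of the 6 pairs of an *ask1* and a L*er* array, the smallest difference was 1.54 (*ask1* replicate 1 over L*er* replicate 1, 2.90-fold) and the largest 2.58 (*ask1* replicate 2 over L*er* replicate 2, 5.99-fold). The smallest difference was therefore 1.92 times the distance between the 2 L*er* arrays, which describes the values by which the gene was selected and is no test. Without L*er* replicate 1 the log2 difference was 2.48, and without L*er* replicate 2 it was 1.68. Without *ask1* replicates 1, 2 and 3 in turn it was 2.15, 2.03 and 2.06.

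Among the named genes, AT5G15950 had the fifth highest log2 difference and the widest distance between the lowest *ask1* array and the highest L*er* array. This distance was 1.54, followed by 1.46 and 1.43 for the next genes, and it was at least 1 (2-fold) in 8 of 13355 named genes. Over genes and unnamed probe sets together this distance ranked 5th of 22588, and the log2 difference ranked 21st. Every *ask1* array lay above every L*er* array in 10.2% of these 22588 rows, so the lack of overlap alone was common. These ranks describe the values by which the gene was selected and are no test.

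**Figure D2:**
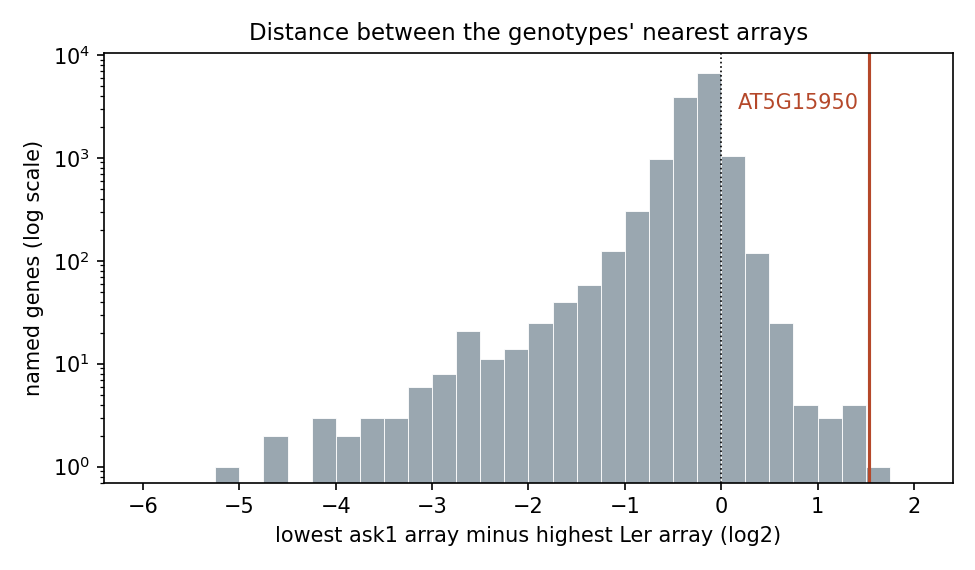
Number of named genes (vertical axis, log scale) by the signal of the lowest *ask1* array minus that of the highest L*er* array (horizontal axis, log2), where values above 0 mean that all *ask1* arrays were higher. The line at 1.54 marks AT5G15950, which lies at the upper end of the 13355 named genes.

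Whether other S-adenosylmethionine decarboxylase genes moved with it was asked of the genes listed for the family, whose values were not used to select AT5G15950. Of the 3 others listed, 2 are named among the probe sets, and their signals overlapped between the genotypes. Overlap was common, as only 20.9% of all rows had genotypes that did not overlap. By limma 0 of the 2 were called at an adjusted p under 0.05, beside 0.0133% of all rows, and 0 had an unadjusted p under 0.05, beside 6.95% of all rows. AT3G02470 (*SAMDC*), annotated as an S-adenosylmethionine decarboxylase, measured 12.32, 13.00 and 12.35 in the *ask1* arrays (replicates 1, 2 and 3, in this order throughout) against 12.62 and 12.38 in the L*er* arrays (replicates 1 and 2). Its highest array was *ask1* replicate 2. Its log2 ratio was 0.05 with a 95% confidence interval from -0.51 to 0.62 (adjusted p = 0.995 from limma). AT3G25570, known here by its locus code only, measured 5.22, 5.13 and 5.25 in *ask1* and 5.18 and 5.19 in L*er*. These signals were low and close to each other, near the level of 5 under which 23.7% of rows lie on average. The log2 ratio was 0.02 with an interval from -0.21 to 0.25 (adjusted p = 0.995 from limma). Both intervals lie within a 2-fold difference in either direction. *BUD2*, the fourth gene of the family, is not named among the probe sets.

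The other steps of the polyamine pathway were read from 7 lists with 44 genes, of which 11 are named here. By limma 0 of the 11 were called in either direction at an adjusted p under 0.05, beside 0.0133% of all rows. The count at an unadjusted p under 0.05 was 0 as well, beside 6.95% of all rows, so both counts lie near the background. The criteria of the study, a difference of 2-fold or more with an unadjusted p under 0.05, were met by 0 of the 11, beside 0.589% of all rows. The median log2 ratio of the 11 was -0.04, against -0.01 over all rows, and all 11 intervals lay within 2-fold, as did 93.9% of all intervals. Of the 11, 4 had mean signals under 5, where ratios are compressed. The genes of putrescine synthesis (0 of 6), the aminopropyl synthases (0 of 4) and the polyamine uptake transporters (0 of 5) are not named here, so the steps next to the decarboxylase could not be read by name.

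Amine oxidases break down putrescine and higher polyamines, and 5 of 13 listed oxidase genes are named here, with log2 ratios from -0.31 to 0.05. *CuAO1*, a copper amine oxidase gene (AT1G62810), had the lowest ratio. It measured 5.09, 5.72 and 5.21 in *ask1* against 5.47 and 5.83 in L*er*. The genotypes overlapped, with *ask1* replicate 2 beside the L*er* arrays, and the interval ran from -0.84 to 0.23 (adjusted p = 0.888 from limma). AT2G42490 measured 8.86, 9.37 and 9.22 in *ask1* and 9.51 and 8.77 in L*er*, so both the highest and the lowest array were wild type. Its log2 ratio was 0.01 with an interval from -0.61 to 0.63. The ratios of AT1G31710, AT1G31670 and AT1G31690 were -0.17, 0.05 and 0.02, and AT1G31690 was dim, at a mean of 4.36 in *ask1* and 4.34 in L*er*.

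Spermidine is also joined to hydroxycinnamic acids, a reaction known from the anther tapetum and from seeds. The 3 of 7 listed conjugation genes named here had mean signals under 5, so a difference between genotypes would be hard to see. *SHT*, the spermidine hydroxycinnamoyl transferase gene (AT2G19070), measured 4.49, 4.62 and 4.38 in *ask1* and 4.44 and 4.43 in L*er*, a log2 ratio of 0.06. *SDT*, the spermidine disinapoyl acyltransferase gene (AT2G23510), measured 3.95, 4.18 and 4.09 in *ask1* against 4.58 in L*er* replicate 1 and 3.86 in L*er* replicate 2. Its L*er* arrays lay on both sides of the *ask1* arrays, and its log2 ratio was -0.15. AT2G25150 had a log2 ratio of -0.15 and all its *ask1* arrays under its L*er* arrays, at 3.46 to 3.54 against 3.60 to 3.70, and an unadjusted p of 0.151 from limma.

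Of 5 listed genes for eIF5A and its spermidine-derived hypusine, AT3G58180 is named here, with a log2 ratio of 0.13. Of 4 listed genes of the thermospermine response, AT5G09460 measured 9.32, 9.24 and 9.14 in *ask1* and 9.50 and 9.32 in L*er*, a log2 ratio of -0.17 with an interval from -0.44 to 0.10. AT5G50010 measured 6.48, 6.18 and 6.44 in *ask1*, and 5.99 and 6.82 in L*er* replicates 1 and 2 enclosed these values. Its log2 ratio was -0.04.

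Of the genes that supply or otherwise use S-adenosylmethionine, 3 of 34 listed are named here. *HMT-1*, a homocysteine methyltransferase gene of methionine synthesis (AT3G25900), measured 8.06, 7.95 and 8.06 in *ask1* and 7.88 and 7.91 in L*er*. *ARD4*, an acireductone dioxygenase gene of the cycle that recovers methionine from the by-product of polyamine and ethylene synthesis (AT5G43850), measured 8.78, 8.88 and 8.77 in *ask1* and 8.74 and 8.57 in L*er*. In both genes every *ask1* array lay above every L*er* array, but by small steps, and their log2 ratios were 0.13 (interval from -0.10 to 0.36) and 0.15 (interval from -0.10 to 0.41). AT1G12010, listed with ethylene synthesis, was dim, at a mean of 4.68 in *ask1* against 4.60 in wild type. By limma 0 of the 3 were called at an adjusted p under 0.05, had an unadjusted p under 0.05 or met the criteria of the study. Over all rows these shares were 0.0133%, 6.95% and 0.589%, so a count of 0 in 3 genes lies near the background. Over the 16 measured genes of all lists, AT5G15950 left out, the groups did not overlap in 3 of 16, beside 20.9% of all rows, and the median log2 ratio was 0.02. With the methods' t-test, AT2G25150 alone had an unadjusted p under 0.05, beside 5.85% of all rows by that test, and 0 of the 16 had an adjusted one.

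**Figure D3:**
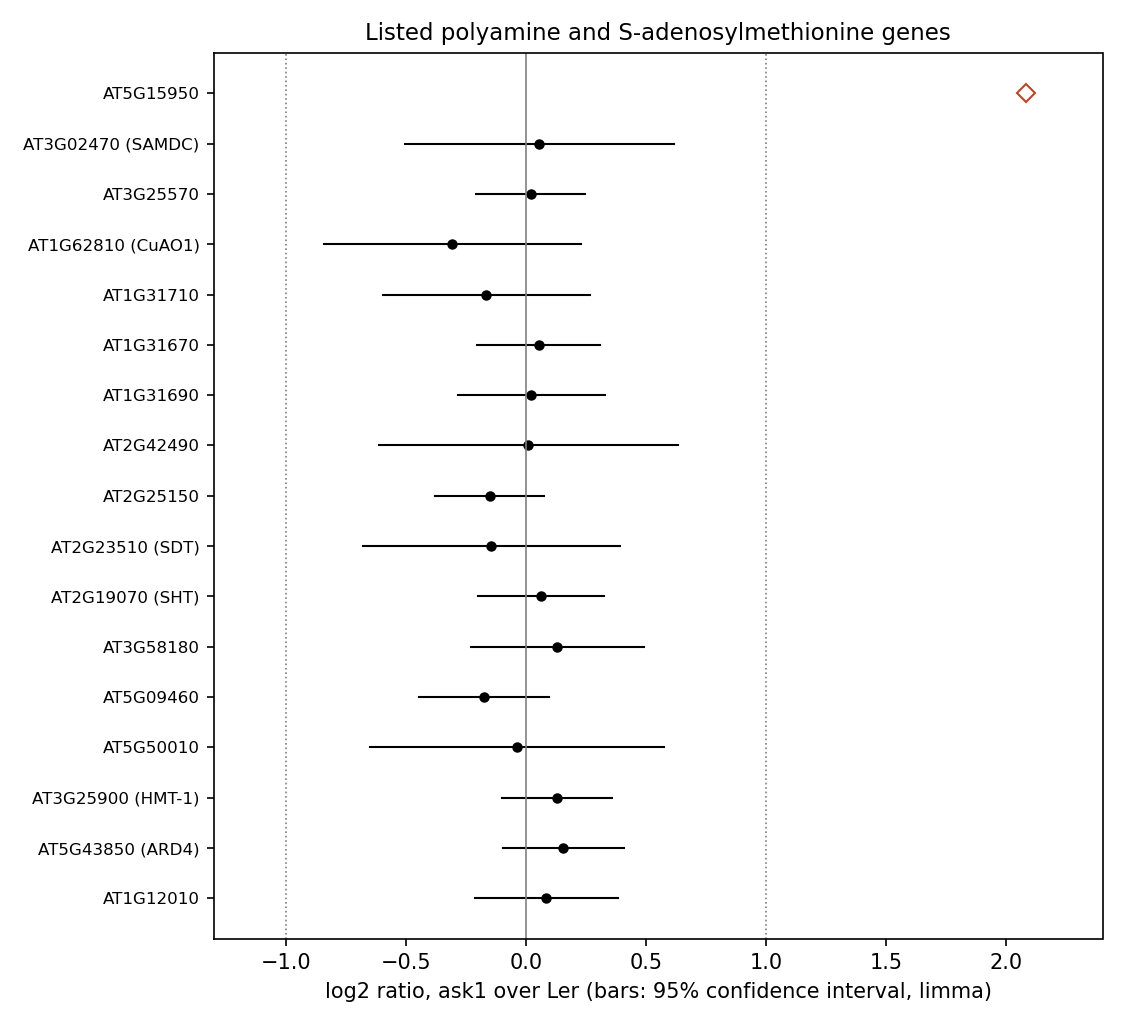
Log2 ratio of *ask1* over L*er* (horizontal axis) for AT5G15950 (open diamond, no interval as it was selected on this value) and for the 16 other measured genes of the polyamine and S-adenosylmethionine lists, with 95% confidence intervals from limma. Dotted lines mark 2-fold. All 16 intervals lie between them, as do 93.9% of the intervals over all rows, and AT5G15950 lies at 2.08.

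The named neighbours of AT5G15950 on the chromosome had smaller ratios, and all 10 intervals lay within 2-fold, as did 93.9% of all intervals. Of the 10, 3 had mean signals under 5, where ratios are compressed, and the adjacent gene AT5G15940 was among them. Among the nearest 5 named genes on each side, 0 of 10 were called by limma at an adjusted p under 0.05, 0 met the criteria of the study and 0 had an unadjusted p under 0.05 by limma or by the methods' t-test. Over all rows these shares were 0.0133%, 0.589%, 6.95% and 5.85%, so a count of 0 in 10 genes lies near the background. The next gene toward lower coordinates, AT5G15940, measured 5.28, 4.63 and 4.81 in *ask1* and 4.60 and 4.73 in L*er*. The genotypes overlapped, with *ask1* replicate 1 the highest array, and its log2 ratio was 0.24 with an interval from -0.25 to 0.73. On the other side the cold-regulated genes *KIN1* and *KIN2* follow, which are not named among the probe sets here, so the closest genes on that side were not read. The first named gene past them, AT5G15980, had a log2 ratio of -0.11. The highest ratio was that of AT5G15910, 4 places away, at 0.45 with an interval from -0.07 to 0.97. It measured 9.07, 8.60 and 8.93 in *ask1* against 8.69 and 8.14 in L*er*, so that *ask1* replicate 2 lay under L*er* replicate 1. AT5G16010, 8 places away on the other side, followed at 0.33, and the remaining ratios, those of AT5G15880, AT5G15890 (*TBL21*), AT5G15900 (*TBL19*), AT5G16030, AT5G16040 and AT5G16060, lay between -0.17 and 0.11.

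**Figure D4:**
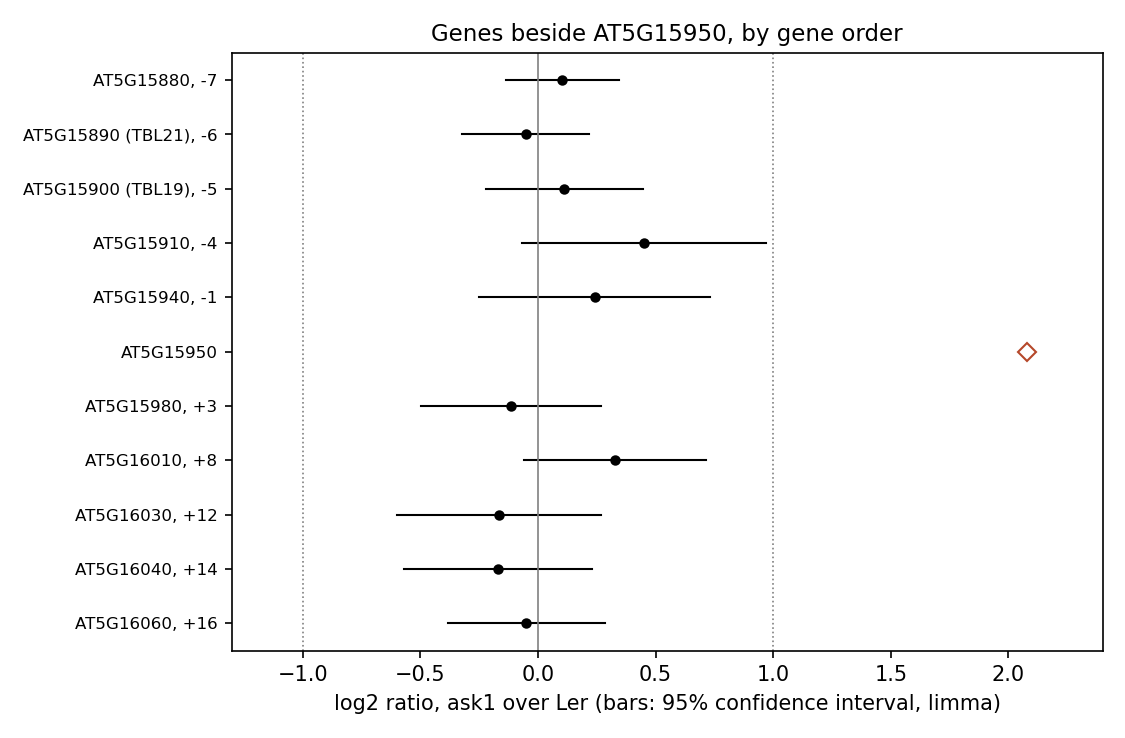
Log2 ratio of *ask1* over L*er* (horizontal axis) for AT5G15950 (open diamond, without an interval) and the nearest 5 named genes on each side in gene order, with 95% confidence intervals from limma. The number after a gene is its place from AT5G15950 in the annotation; the 10 neighbours lie between -0.17 and 0.45.

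The genes with the most similar profile were sought among 624 named genes whose signals spanned at least 1 on the log2 scale, by the Pearson correlation over the 5 arrays. The 6 highest correlations were between 0.981 and 0.993, and 39 genes had one of at least 0.9. With 5 arrays in 2 groups a high correlation mostly says that the groups differ, and no p is given. AT2G40460, annotated as a major facilitator gene, was most similar (r = 0.993). It measured 7.02, 7.17 and 7.22 in *ask1* and 6.10 and 5.85 in L*er*. As in AT5G15950, the genotypes were separate and L*er* replicate 1 was the higher wild-type array, but the log2 difference was smaller, at 1.16. AT4G17840 (r = 0.989), AT2G34460 (r = 0.988), AT3G57020 (r = 0.981) and AT4G24700 (r = 0.981) had log2 differences of 0.79, 0.72, 0.84 and 0.89. *HYH* (AT3G17609), which encodes a relative of HY5, a transcription factor of light responses, was also among the 6 (r = 0.985). *HYH* measured 5.37, 5.95 and 5.77 in *ask1* and 4.52 and 3.96 in L*er*, and like AT5G15950 and AT2G34460 it was highest in *ask1* replicate 2. Both of its L*er* signals were under 5, close to background, where ratios are compressed. The most opposed profiles were those of AT1G17665 (r = -0.998) and AT3G62550 (r = -0.974), with log2 differences of -0.79 and -1.24. All 8 genes had separate genotypes, as did 20.9% of all rows, and a choice by correlation with AT5G15950 favours this. Their choice depends on single arrays: without L*er* replicate 2, 1 of the 6 most similar genes was again among the first 6, without *ask1* replicate 2 it was 2, and without L*er* replicate 1 it was 3.

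**Figure D5:**
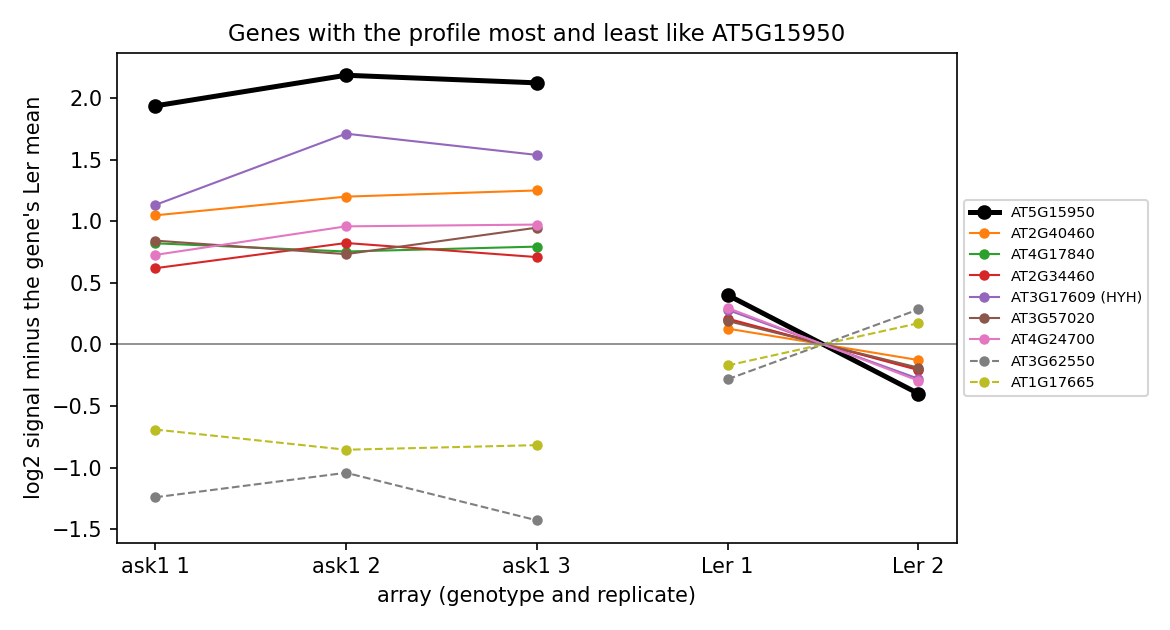
Log2 signal of each array minus the mean of the L*er* arrays of the same gene (vertical axis) for AT5G15950 (thick black line), the 6 genes with the highest and the 2 with the lowest (dashed) Pearson correlation to it. Lines only join the points of a gene within a genotype; all 6 similar genes are above 0 in every *ask1* array and lie under AT5G15950 there.

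The named tapetum genes, like AT5G15950, differed between the L*er* arrays. Of 11 listed tapetum genes 2 are named here, *AMS* (AT2G16910), a transcription factor gene known for tapetum and pollen development, and AT5G07230. *AMS* measured 5.96 in L*er* replicate 1, 4.61 in L*er* replicate 2 and 4.39 to 4.80 in *ask1*. AT5G07230 measured 11.46 in L*er* replicate 1, 8.31 in L*er* replicate 2 and 8.62 to 9.38 in *ask1*. Their summed linear signal was 2887 in L*er* replicate 1, 340.7 in L*er* replicate 2 and 413.6 to 692.1 in *ask1*, so L*er* replicate 1 stood apart above the other arrays. AT5G07230 made up 92.8% to 97.8% of this sum, which thus rests on 1 of the 11 listed genes, and *AMS* was under 5 in all arrays but L*er* replicate 1. L*er* replicate 1 was also the wild-type array in which AT5G15950 was higher, at 8.75 against 7.95. Against L*er* replicate 2, the array with the lowest signal of AT5G07230, AT5G15950 was higher by 2.33 to 2.58 in the *ask1* arrays. The part of the tapetum genes in the difference was not tested.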

How the data were processed

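The authors hybridised floral bud RNA to Affymetrix ATH1 arrays and deposited log2 signals per probe set after RMA. The RMA version is not given in the sources used here. The study describes its normalized data as spanning more L*er* arrays than those used here. All 5 deposited columns were used. By the platform's annotation 13513 probe sets list 1 gene, 503 list several and 8730 are unnamed here. Gene IDs were updated through RefSeq (TAIR10.1), where 77 probe sets had no match and kept their platform name. A gene was represented by its brightest probe set, and all other probe sets stayed as rows, 22588 in all. No coordinates are printed, and gene order alone was taken from the RefSeq annotation.

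The test was that of limma 3.58.1 (lmFit, then eBayes, two-sided and without a block, under R 4.3.3). Its p-values were adjusted over the 22588 rows by Benjamini-Hochberg, with 0.05 as the threshold. For the criteria of the study the p of limma was taken. The scripts were tested on simulated data. The number of arrays limits the precision. The p-values set the difference between genotypes against the spread between these arrays, which limma moderates over all rows.

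The gene, the 11 lists (82 genes, 17 named here) and the tests were chosen with earlier results of these data known. List genes known by locus code only were placed from general knowledge. Genes were named by a rule: all measured family members, in each other list those called and up to 4 others with the largest absolute ratio, the nearest 5 named genes on each side, and the 6 highest and 2 lowest correlations among genes spanning at least 1. In the oxidase list AT2G42490 goes beyond the rule and was chosen after its values were seen. Alternatives tried were median centring, the methods' t-test, a limma fit with a mean-variance trend, quantile normalization, a minimum mean signal of 6, the mean of a gene's probe sets, a replicate block, other similarity and averaging scales, and the omission of each array. After the arrays' correlations were known, an average of *ask1* replicates 1 and 3 was added.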

Additional observations from a re-analysis of the deposited data

How the results depend on the processing

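The higher signal of AT5G15950 in *ask1* kept its direction under every alternative run. Leaving out or averaging arrays could not reverse it, as the lowest *ask1* array lay 1.54 above the highest L*er* array. These runs therefore show only how far the size of the difference moved. The log2 difference of AT5G15950 was 2.10 with centred arrays, 2.09 with quantile normalization and 2.03 from averaged linear signals. It was 2.11 with *ask1* replicates 1 and 3 averaged, and 1.68 to 2.48 with 1 array left out. With the replicate number as a block it was 2.06, the same value as without *ask1* replicate 3, which has no L*er* array of equal number. Deviations from the group means correlated at -0.26 and -0.01 between arrays of equal number. As the deviations of the 2 L*er* arrays mirror each other, these values are not independent. They cannot decide whether arrays of equal number were handled together.

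No paralog, gene of the polyamine and S-adenosylmethionine lists or neighbour was called at an adjusted p under 0.05 or met the criteria of the study in any setting. Some ratios, none of them called, changed sign. With the replicate block these were AT2G42490 (-0.025) and AT3G25570 (-0.0062), and with *ask1* replicates 1 and 3 averaged AT1G31690 (-0.015). The block ratios equal those without *ask1* replicate 3, so they add nothing to that omission. With 1 array left out, ranges that crossed 0 were -0.17 to 0.17 for AT3G02470, -0.0062 to 0.052 for AT3G25570, -0.36 to 0.38 for AT2G42490, -0.38 to 0.048 for AT1G31710, -0.013 to 0.12 for AT1G31670, -0.069 to 0.11 for AT1G31690, -0.51 to 0.22 for AT2G23510, -0.010 to 0.27 for AT3G58180, -0.45 to 0.37 for AT5G50010, -0.049 to 0.21 for AT1G12010, -0.17 to 0.066 for AT5G15890, -0.20 to 0.026 for AT5G15980, -0.34 to 0.0023 for AT5G16040, -0.17 to 0.073 for AT5G16060 and, for the tapetum genes, whose ratios turned without L*er* replicate 1, -1.32 to 0.035 for AT2G16910 (-0.64 with all arrays) and -2.47 to 0.69 for AT5G07230 (-0.89 with all arrays).

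Over all rows, 3 were called at an adjusted p, 104 higher and 29 lower rows met the criteria. Adjusted calls were 0 with the methods' t-test and with *ask1* replicates 1 and 3 averaged, 1 with quantile normalization and 0 to 373 with 1 array left out, the most without *ask1* replicate 2. The criteria gave 58 higher and 10 lower rows with the methods' t-test, 66 lower with the replicate block, and 70 to 155 higher and 20 to 188 lower with 1 array left out. Of the 6 genes most similar to AT5G15950, 3 were shared with quantile normalization, 2 with Spearman's rho (where 13 genes tied at 1) and 1 to 5 with 1 array left out. The cause was not tested. For the dim genes of the lists the signal over background limits what could be seen.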
